A study of Danio rerio with 12 samples.

Results

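Aminoacyl-tRNA synthetase genes encode the enzymes that join each amino acid to its transfer RNA. They were taken from the count table by name, as every row whose zebrafish symbol is the letter of an amino acid followed by "ars" with or without a 1 or 2, together with eprs1, farsa and farsb. The rule found 35 of the 32520 genes in the table, and all 35 passed the filter on low counts. Of these, 19 are named as cytosolic enzymes, 15 carry the 2 of the mitochondrial enzymes, and hars2 is treated apart because the RefSeq gene table of the zebrafish assembly GRCz12tu lists a gene hars and no hars2. That table does not list the symbol lars1 either, and lars1 was kept by its name among the cytosolic genes. RNA was taken from whole zebrafish embryos of the TU strain at the tailbud stage, at 10 hours after fertilisation, 3 samples in each of 4 groups. The groups were the tif1g morpholino with leflunomide, the tif1g morpholino with DMSO, the control morpholino with leflunomide, and the control morpholino with DMSO. All embryos received 1 ng of a morpholino at the 1 to 2 cell stage, either one that blocks the translation start of tif1g (the gene trim33) or a standard control oligo, so that no group was left uninjected. Leflunomide, which blocks dhodh, an enzyme of pyrimidine synthesis, was given at 7 µM from 5.3 hours after fertilisation, DMSO is its solvent, and the label of each sample gives 109 pooled, snap-frozen embryos.

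A synthetase in most cases recognises 1 amino acid and its transfer RNAs and uses ATP to activate the amino acid. It then transfers the amino acid to the end of the transfer RNA, from which the ribosome builds protein. The cytosolic enzymes fall in a class I and a class II by the fold of their catalytic domain, and in animals several of them sit together with scaffold proteins in a multisynthetase complex. Mitochondria translate the few proteins of their own genome with a separate set of nuclear-encoded enzymes, although glycine and lysine are served in mammals by proteins made from the same genes in both compartments (gars1 and kars1). In mammals many cytosolic synthetase genes are also targets of ATF4, the transcription factor of the amino acid stress response.

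Library totals were 27714933 to 29691037 counts in tif1g leflunomide, 28652362 to 28971991 in tif1g DMSO, 27574593 to 29182933 in control leflunomide and 29845686 to 32088082 in control DMSO. The control DMSO libraries stood apart from the other 9 in 3 measures. Their TMM scaling factors were 0.926 to 0.958, against 0.979 to 1.05 elsewhere, 26228 to 26420 genes had a count in them, against 26504 to 27155, and 0.763% to 0.841% of their counts came from the mitochondrial genome, against 0.944% to 1.12%. The trim33 transcript averaged 422 ± 8.88 CPM in tif1g leflunomide, 380.2 ± 12.5 in tif1g DMSO, 81.5 ± 3.64 in control leflunomide and 74.9 ± 5.03 in control DMSO (SD, n = 3; CPM are counts scaled to a common library total with TMM factors, as for all levels here). A morpholino that blocks translation need not lower its transcript, so this level does not measure the knockdown. The dhodh transcript averaged 14.2 ± 0.874 CPM in tif1g leflunomide, 12.4 ± 0.936 in tif1g DMSO, 22.0 ± 2.40 in control leflunomide and 23.4 ± 1.93 in control DMSO.

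The cytosolic genes together took a smaller share of all counts in each of the 3 other groups than in control DMSO. Their summed share was 0.202%, 0.204% and 0.201% in tif1g leflunomide, 0.224%, 0.216% and 0.222% in tif1g DMSO, 0.212%, 0.207% and 0.212% in control leflunomide, and 0.262%, 0.237% and 0.245% in control DMSO. The 3 control DMSO libraries were the highest of the 12, the 3 tif1g leflunomide libraries the lowest, and no control DMSO library overlapped with another group. The 15 mitochondrial genes took 0.0203% ± 0.000425 in tif1g leflunomide, 0.0205% ± 0.00123 in tif1g DMSO, 0.0195% ± 0.000427 in control leflunomide and 0.0184% ± 0.000655 in control DMSO (SD, n = 3). The mean mitochondrial share was lowest in control DMSO, where the cytosolic one was highest, although the mitochondrial ranges of the groups overlapped in part. This order holds for shares of library totals, without TMM factors. With TMM factors the median log2 fold change of the 15 genes against control DMSO was 0.08 for the knockdown, -0.14 for leflunomide and -0.004 for both. In whole embryos, fewer cells of a type and less RNA per cell cannot be told apart.

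**Figure D1:**
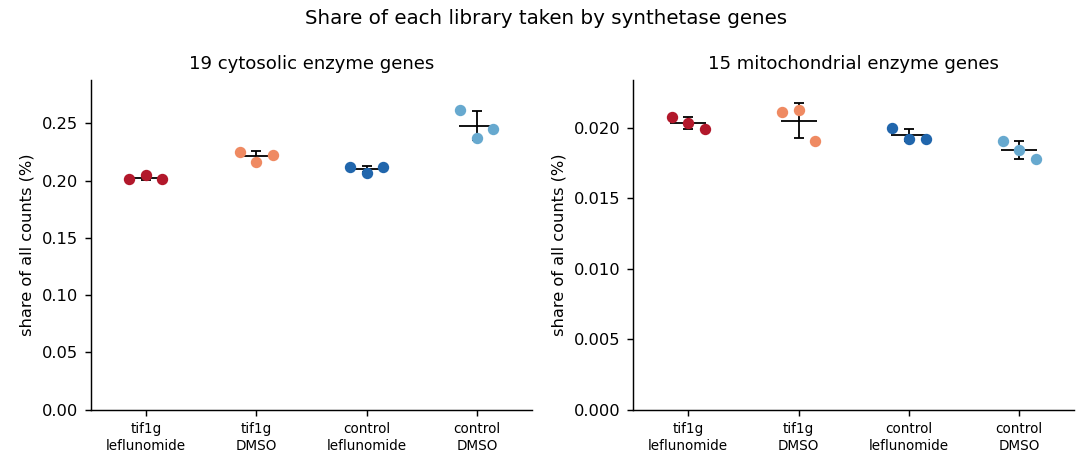
Share of all counts in each library (percent, linear axis from 0) taken by the 19 cytosolic and the 15 mitochondrial synthetase genes, with 1 point per library and the group mean ± SD (n = 3) beside it. The cytosolic share is 0.237% to 0.262% in control DMSO and 0.201% to 0.224% in the other 9 libraries.

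The counts behind a gene differed widely, from 30 to 100 per library for the mitochondrial arginyl gene rars2 to 9424 to 14082 for the lysyl gene kars1, and so did the precision of each change. Levels are per gene and not per transcript length, so they are not compared between genes.

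In control embryos, leflunomide lowered nearly every cytosolic synthetase transcript. Of the 19 genes, 18 fell and none rose, at a Benjamini-Hochberg adjusted p under 0.05 in edgeR's quasi-likelihood test, where 13.1% of all 21400 tested genes fell and 8.87% rose. The median log2 fold change was -0.38 over the 19 genes and 0.02 over all tested genes, and single genes lay between -0.50 and -0.20. All 3 leflunomide libraries lay below all 3 DMSO libraries for 19 of 19 genes, which held for 19.2% of all tested genes.

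The seryl gene sars1 had 172, 152 and 158 CPM in control leflunomide, against 243, 209.5 and 220.4 CPM in control DMSO, a log2 fold change of -0.48 ± 0.07 (SE; adjusted p = 0.000169). The glycyl gene gars1 had 164, 156 and 172 CPM in control leflunomide, against 245, 205 and 226 CPM in control DMSO (-0.46 ± 0.07, adjusted p = 0.000180). Both transcripts stood in every leflunomide library well below the lowest DMSO library. The phenylalanyl enzyme is built of an alpha subunit (farsa) and a beta subunit (farsb), and both transcripts fell. farsa had 50.6, 46.1 and 46.6 CPM in control leflunomide, against 64.5, 61.1 and 60.2 CPM in control DMSO (-0.37 ± 0.06, adjusted p = 0.000224). farsb had 43.2, 37.4 and 41.9 CPM in control leflunomide, against 63.6, 54.0 and 56.0 CPM in control DMSO (-0.50 ± 0.08, adjusted p = 0.000149). The groups did not overlap for either subunit.

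All 8 enzymes of the multisynthetase complex fell in leflunomide-treated control embryos. The leucyl gene lars1 changed most among them (-0.49 ± 0.08, adjusted p = 0.000237), with 55.8, 50.3 and 50.5 CPM in control leflunomide, against 81.7, 68.2 and 70.6 CPM in control DMSO. The lysyl gene kars1 changed by -0.40 ± 0.05 (adjusted p = 7.38e-05). eprs1, which encodes the joined glutamyl and prolyl enzymes, changed by -0.38 ± 0.05 and the glutaminyl gene qars1 by -0.36 ± 0.05, with adjusted p-values of 8.00e-05 and 8.39e-05. The arginyl gene rars1 (-0.30 ± 0.07), the isoleucyl gene iars1 (-0.24 ± 0.07) and the methionyl gene mars1 (-0.20 ± 0.06) changed least, with adjusted p-values of 0.00352, 0.0247 and 0.0243. Among the 11 genes outside the complex, 10 fell. Besides the 4 given above these were the valyl gene vars1 (-0.40 ± 0.06), the threonyl gene tars1 (-0.39 ± 0.06), the tyrosyl gene yars1 (-0.38 ± 0.06), the tryptophanyl gene wars1 (-0.34 ± 0.12), the alanyl gene aars1 (-0.30 ± 0.06) and the asparaginyl gene nars1 (-0.25 ± 0.07), with adjusted p-values of 7.85e-05, 0.000128, 0.000173, 0.0439, 0.00104 and 0.0158. The cysteinyl gene cars1 was the exception at -0.20 ± 0.07 (adjusted p = 0.0515). With the replicate number as a block it passed as well (adjusted p = 0.0204, where the block called 17.8% of all tested genes lower and 13.5% higher; range over the alternative settings 0.0204 to 0.537).

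The fall was spread over the classes and lists of the enzymes. It took 9 of 10 class I and 9 of 9 class II enzymes, with the joined enzymes of eprs1 counted in class I alone. It also took 11 of 12 genes known as ATF4 targets in mammals beside 7 of 7 that are not on that list. Of 24 tissue markers of the tailbud embryo, 11 fell and none rose, against 13.1% and 8.87% of all tested genes. With library totals 6 were lower and 1 higher. With the block, which called 17.8% of all tested genes lower, 14 of the 24 were lower. The summed level of the 24 markers was 11838 to 12459 CPM in control leflunomide and 13816 to 14976 CPM in control DMSO, and none was at 0. Their part in the change of the synthetase genes, and that of the lower scaling factors of control DMSO, was not tested.

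The calls of iars1, mars1, nars1 and wars1 rested on single libraries. The call of iars1 ended without control DMSO replicate 1 or control leflunomide replicate 2 (adjusted p = 0.154 and 0.120), that of nars1 without control leflunomide replicate 1 (0.0881), and that of mars1 without any of those 3 (0.0538 to 0.137). That of wars1 ended without control DMSO replicate 1 or any 1 of the 3 control leflunomide or 3 tif1g leflunomide libraries (up to 0.234). With library totals in place of TMM factors the median of all genes moved to 0.16, all 19 cytosolic changes were still negative and 13 were called. The calls that ended were those of iars1, mars1, nars1, rars1 and wars1 (adjusted p = 0.271, 0.407, 0.263, 0.0742 and 0.216). Calls over all genes were then 3538 higher and 1220 lower, against 1899 higher and 2796 lower with TMM. With TMM factors the call of rars1 also ended with replicate number 1 left out of all groups (0.0784). The cytosolic median lay 0.40 below that of all genes under either scaling. A change of scaling moves all genes nearly alike, so this distance could hardly differ and is no check on the scaling.

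**Figure D2:**
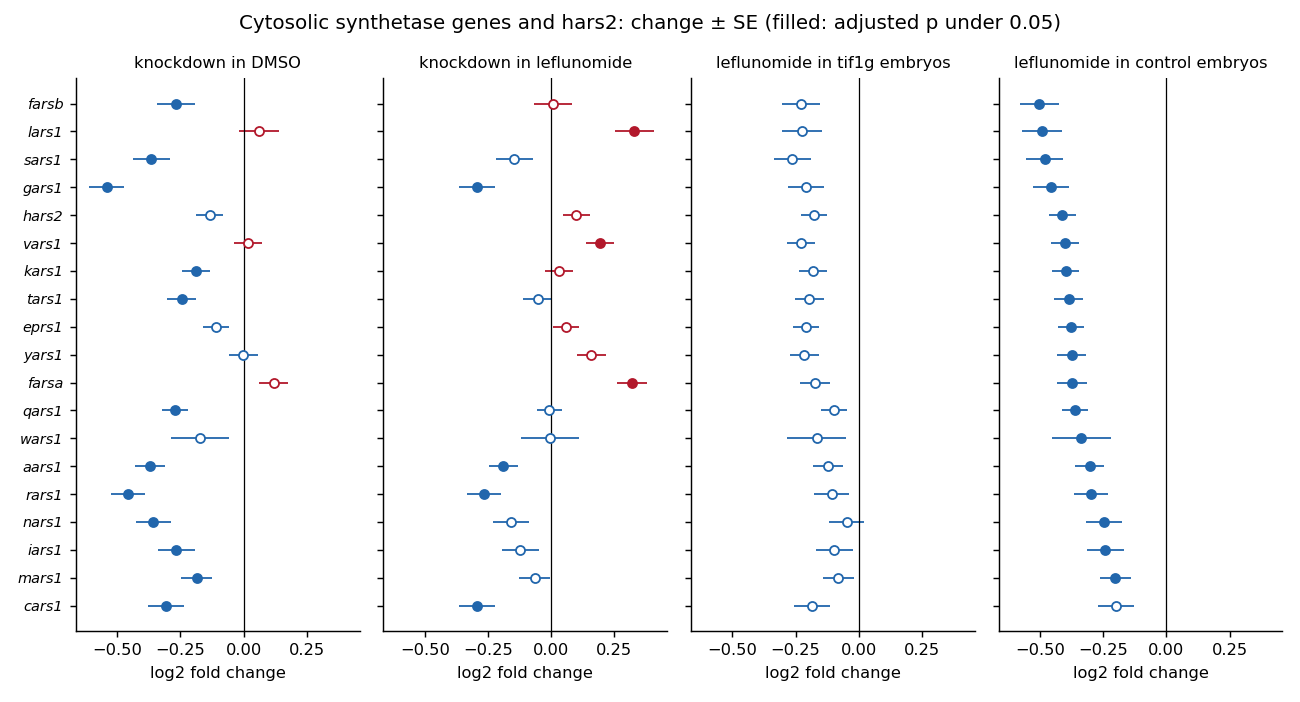
Log2 fold change ± SE of 18 cytosolic synthetase genes and hars2 from edgeR for the knockdown in DMSO and in leflunomide and for leflunomide in tif1g and in control embryos, with called changes (adjusted p under 0.05) filled. Leflunomide in control embryos lies between -0.50 and -0.20 for the 19 genes shown, and the knockdown in leflunomide lies on both sides of 0.

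The tif1g knockdown in DMSO also lowered cytosolic synthetase transcripts, with changes of either sign among the genes. Of 19, 13 fell and none rose, where 17.2% of all tested genes fell and 15.6% rose. The median log2 fold change was -0.27 over the 19 genes and 0.00 over all tested genes, with single genes between -0.54 and 0.12. All 3 tif1g DMSO libraries lay below all 3 control DMSO libraries for 14 genes and above them for 1, against 22% and 21.7% of all tested genes. With library totals 11 of the 19 were called lower and farsa was called higher (adjusted p = 0.0130), the calls of kars1 and mars1 ending (0.0792 and 0.128). Calls over all genes were then 4306 higher and 2888 lower, against 3330 higher and 3682 lower with TMM. The cytosolic median lay 0.27 below that of all genes under either scaling, a distance that a change of scaling hardly moves. These values and those of leflunomide in control embryos share the 3 control DMSO libraries.

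The largest fall was that of gars1, with 159, 141 and 164 CPM in tif1g DMSO, against 245, 205 and 226 CPM in control DMSO (-0.54 ± 0.07, adjusted p = 1.07e-05). rars1 had 46.0, 50.9 and 54.7 CPM in tif1g DMSO, against 72.4, 66.9 and 68.9 CPM in control DMSO (-0.46 ± 0.07, adjusted p = 4.15e-05). aars1 had 205, 214 and 209 CPM in tif1g DMSO, against 295, 265 and 253 CPM in control DMSO (-0.37 ± 0.06, adjusted p = 8.17e-05). In all 3 genes the highest tif1g library stood below the lowest control library. The other falls were smaller. They included those of nars1 and sars1 (-0.36 ± 0.07 and -0.36 ± 0.07; adjusted p = 0.000675 and 0.000847), cars1 (-0.31 ± 0.07; 0.00258), farsb, iars1 and qars1 (-0.27 ± 0.08, -0.27 ± 0.07 and -0.27 ± 0.05; 0.0106, 0.00923 and 0.000455), tars1 (-0.25 ± 0.06; 0.00274), and kars1 and mars1 (-0.19 ± 0.05 and -0.19 ± 0.06; 0.0122 and 0.0259).

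The 6 cytosolic genes that did not pass were eprs1, farsa, lars1, vars1, wars1 and yars1, at log2 fold changes of -0.11 ± 0.05, 0.12 ± 0.06, 0.06 ± 0.08, 0.02 ± 0.06, -0.17 ± 0.11 and 0.00 ± 0.06. The subunits of the phenylalanyl enzyme thus had changes of opposite sign, of which only that of farsb was called. farsa had 64.7, 66.7 and 70.4 CPM in tif1g DMSO, against 64.5, 61.1 and 60.2 CPM in control DMSO, and it was the 1 cytosolic gene whose 3 tif1g libraries all lay above the 3 controls. Called genes were 5 of 10 in class I, in which alone eprs1 was counted, and 8 of 9 in class II. They were 6 of 8 in the multisynthetase complex and 7 of 11 outside it, and 8 of 12 ATF4 targets in mammals beside 5 of 7 others. No test was made between these groups. The calls of farsb, iars1, kars1 and mars1 ended without control DMSO replicate 1 (adjusted p = 0.0730, 0.0693, 0.0757 and 0.162) or without tif1g DMSO replicate 2 (0.0528, 0.0541, 0.0546 and 0.0771), and that of mars1 also without tif1g DMSO replicate 1 (0.0687). With replicate number 1 left out of all groups, 8 of the 13 calls were left. Of the 24 tissue markers, 7 fell and none rose, against 17.2% and 15.6% of all tested genes. With library totals 7 were lower and 3 higher. With the block, which called 22.3% of all tested genes lower and 19.9% higher, 13 of the 24 were lower and 4 higher. The summed level of the 24 markers was 11967 to 12679 CPM in tif1g DMSO and 13816 to 14976 CPM in control DMSO. Their part in the change was not tested.

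In leflunomide, the knockdown gave called changes in both directions among the cytosolic genes, with a median near that of all genes. The libraries of this comparison are not those of the knockdown in DMSO. Of 19 genes, 4 fell and 3 rose, where 11.8% of all tested genes fell and 12% rose, and the medians were -0.03 over the 19 genes and 0.01 over all genes. Fully separate libraries were found for 4 genes below (21.1%) and 5 above the controls (26.3%), not far from the 19.9% and 20.2% of all tested genes. The 4 that fell, aars1, cars1, gars1 and rars1, were also called lower by the knockdown in DMSO.

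gars1 had 137, 126 and 138 CPM in tif1g leflunomide, against 164, 156 and 172 CPM in control leflunomide (-0.29 ± 0.07, adjusted p = 0.00495). cars1 had 29.0, 31.4 and 29.2 CPM in tif1g leflunomide, against 36.9, 35.8 and 37.2 CPM in control leflunomide (-0.29 ± 0.07, adjusted p = 0.00552). Neither gene had overlapping groups. rars1 changed by -0.27 ± 0.07 (adjusted p = 0.00717) and aars1 by -0.19 ± 0.06 (0.0237), and the call of aars1 ended without tif1g leflunomide replicate 1 or control leflunomide replicate 1 or 3 (0.0606 to 0.121). The 3 genes that rose were farsa, lars1 and vars1. farsa had 61.1, 59.0 and 58.8 CPM in tif1g leflunomide, against 50.6, 46.1 and 46.6 CPM in control leflunomide (0.32 ± 0.06, adjusted p = 0.000608). lars1 had 65.8, 67.4 and 63.7 CPM in tif1g leflunomide, against 55.8, 50.3 and 50.5 CPM in control leflunomide (0.33 ± 0.08, adjusted p = 0.00478). In both, every tif1g library was above every control library. The call of lars1 ended with replicate number 2 or 3 left out of all groups (adjusted p = 0.0527 and 0.0712). vars1 changed by 0.19 ± 0.06 (adjusted p = 0.0167), and its call ended without replicate 2 of tif1g leflunomide or of control leflunomide (0.0802 to 0.0838). With the replicate block, which called 16.7% of all tested genes lower and 17% higher, nars1 and sars1 were also called lower and yars1 higher (adjusted p = 0.0361, 0.0165 and 0.0150; ranges over the alternative settings 0.0361 to 0.349, 0.0165 to 0.472 and 0.0150 to 0.343). With replicate number 3 left out of all groups, none of the 4 falls was called, and without replicate 2 or 3 of tif1g leflunomide or of control leflunomide 4 synthetase genes of any compartment were called higher, against 7 with all libraries. Of the 24 tissue markers, 5 rose and 4 fell (8 and 8 with the block), at summed levels of 12160 to 12383 CPM in tif1g leflunomide and 11838 to 12459 CPM in control leflunomide.

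**Figure D3:**
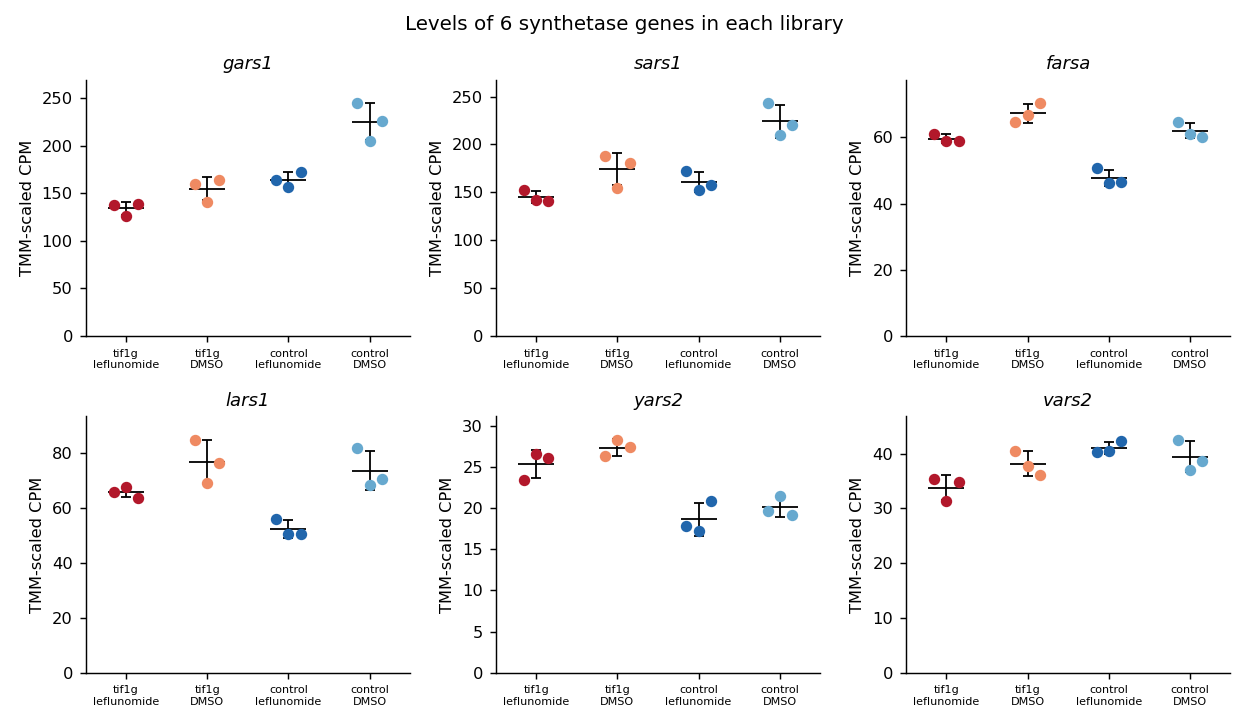
Level of selected synthetase genes in each library (TMM-scaled CPM, linear axis from 0), with 1 point per library and the group mean ± SD (n = 3). For gars1 and sars1 the 3 control DMSO libraries stand above the other 9, while for farsa control leflunomide is the lowest group, at 46.1 to 50.6 CPM.

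In tif1g embryos, leflunomide gave the cytosolic genes changes of the same sign as in control embryos, and none passed the test without the replicate block. All 19 cytosolic changes were negative, between -0.26 and -0.05 with a median of -0.18, against 0.01 over all genes, and in 16 of 19 all 3 leflunomide libraries lay below all 3 DMSO libraries, which held for 10.1% of all tested genes. edgeR's quasi-likelihood test called 0 of them, where 0.425% of all tested genes fell and 0.192% rose. At an unadjusted p under 0.05 there were 11 of the 19, all lower, and 2981 of the 21400 tested genes, 1636 lower and 1345 higher. DESeq2 called 3 of the 19 lower, where it called 302 of all genes lower and 139 higher. Without control DMSO replicate 1, 2 of the 35 synthetase genes were called lower. Over all genes, leaving out 1 library gave 0 to 151 lower. With the replicate block, 10 fell and none rose, where 4.39% of all genes fell and 2.7% rose. These were eprs1, farsa, farsb, gars1, kars1, lars1, sars1, tars1, vars1 and yars1. For sars1, with 152, 142 and 141 CPM in tif1g leflunomide, against 188, 155 and 180.3 CPM in tif1g DMSO, the log2 fold change was -0.26 ± 0.07, with an adjusted p of 0.105, and of 0.000729 with the block (range over the alternative settings 0.000729 to 0.519). vars1 changed by -0.23 ± 0.06 (0.0656; 0.00286 with the block) and eprs1 by -0.21 ± 0.05 (0.0746; 0.00493 with the block), with ranges of 0.00286 to 0.426 and 0.00493 to 0.394. None of the tissue markers was called in either direction.

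The difference between the leflunomide effects, tested as the interaction, was positive for all 19 cytosolic genes, with a median of 0.19, against 0.01 over all genes. With library totals 18 of 19 were positive. edgeR's quasi-likelihood test called none of the 19 and 0% of all tested genes. At an unadjusted p under 0.05 there were 12 of the 19, all positive, and 2560 of the 21400 tested genes, 1504 positive and 1056 negative. DESeq2 called 0 of the 19 and 162 genes in all. With the replicate block, 6 of the 19 were called, all positive, where 3.37% of all tested genes were called positive and 1.62% negative. They included gars1, kars1, lars1, qars1 and sars1, with interactions of 0.25 ± 0.10, 0.22 ± 0.08, 0.27 ± 0.11, 0.26 ± 0.07 and 0.22 ± 0.10 in the fit without the block. The adjusted p-values of these genes over all settings ran from 0.0183 to 0.838.

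qars1 shows 1 form of such a difference. It had 102, 100.1 and 96.2 CPM in tif1g leflunomide, against 108, 107 and 103 CPM in tif1g DMSO (-0.10 ± 0.05, adjusted p = 0.411). It had 97.3, 101 and 101 CPM in control leflunomide, against 134, 125 and 126 CPM in control DMSO (-0.36 ± 0.05, adjusted p = 8.39e-05). The 3 control DMSO libraries were above the other 9, which lay close together. Control DMSO enters the interaction with the knockdown and the leflunomide change alike. In qars1, a level high in control DMSO alone and a smaller effect of leflunomide in tif1g embryos therefore cannot be told apart. lars1 had another form, with 65.8, 67.4 and 63.7 CPM in tif1g leflunomide and 84.7, 69.0 and 76.3 CPM in tif1g DMSO. It had 55.8, 50.3 and 50.5 CPM in control leflunomide and 81.7, 68.2 and 70.6 CPM in control DMSO. The tif1g DMSO and control DMSO libraries of lars1 overlapped, and its control leflunomide libraries were the lowest.

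**Figure D4:**
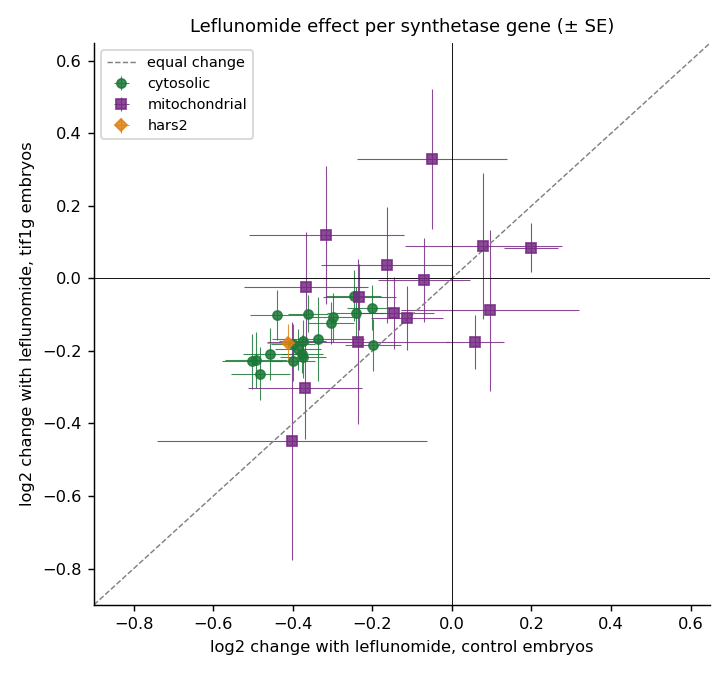
Log2 fold change of each synthetase gene for leflunomide against DMSO in tif1g embryos and in control embryos (6 libraries each, none shared), with the dashed line where both are equal. The cytosolic genes lie at -0.26 to -0.05 in tif1g embryos and at -0.50 to -0.20 in control embryos, and all 19 lie above the line. Bars are standard errors.

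Embryos with both the knockdown and leflunomide, set against control DMSO, had lower levels of 17 of the 19 cytosolic transcripts and higher levels of none, where 18.7% of all tested genes fell and 17.3% rose. The median was -0.37 over the 19 genes and 0.01 over all genes, and the groups were fully separate, with the treated embryos below, for 18 genes, against 23.3% of all tested genes. gars1 was at 134 ± 6.77 CPM in tif1g leflunomide and 225 ± 19.7 CPM in control DMSO (SD, n = 3), a log2 fold change of -0.75 ± 0.07 (adjusted p = 2.38e-07), followed by sars1 (-0.63 ± 0.07; 2.92e-06) and rars1 (-0.57 ± 0.07; 3.35e-06). The other called genes lay between -0.49, in aars1, cars1 and farsb, and -0.21, in vars1. farsa (-0.05 ± 0.06) and lars1 (-0.16 ± 0.08) did not pass, although lars1 did with the block, which called 23.2% of all tested genes lower and 21.6% higher (adjusted p = 0.0219; range over the alternative settings 0.0219 to 0.695). The call of wars1 (-0.34 ± 0.12) ended without control DMSO replicate 1 or tif1g leflunomide replicate 1 or 2 (adjusted p = 0.0638 to 0.174). With library totals the median of all genes moved to 0.13, 14 of the 19 genes were called, and calls over all genes were 5322 higher and 2644 lower, against 3694 higher and 4003 lower with TMM. This comparison shares control DMSO with the knockdown in DMSO and with leflunomide in control embryos. Of the 24 tissue markers, 12 fell and 1 rose, with 8 lower and 3 higher with library totals and 15 lower and 2 higher with the block.

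The mitochondrial enzymes, on lower counts, showed few called changes outside the knockdown in leflunomide. In that comparison 4 of 15 rose and 1 fell, where 12% of all tested genes rose and 11.8% fell. In control embryos with leflunomide, 1 of 15 rose and none fell, where 8.87% of all tested genes rose and 13.1% fell. The median was -0.14 over the 15 genes and 0.02 over all genes. The riser was the alanyl gene aars2, with 39.4, 37.9 and 38.5 CPM in control leflunomide, against 34.5, 33.2 and 33.2 CPM in control DMSO (0.20 ± 0.07, adjusted p = 0.0433). Although its libraries did not overlap, the call ended without any 1 of 9 libraries (all 3 of control leflunomide and of control DMSO, tif1g DMSO replicates 1 and 2, and tif1g leflunomide replicate 3; adjusted p = 0.0506 to 0.131). With the block, the isoleucyl gene iars2 (-0.23 ± 0.09 without it) and the prolyl gene pars2 (-0.37 ± 0.14) were called lower, at adjusted p = 0.00957 and 0.0467 (ranges over the alternative settings 0.00957 to 0.478 and 0.0467 to 0.595). With library totals the median of the 15 genes was -0.01 and that of all genes 0.16. The median of the 15 lay 0.17 below all genes under either scaling, a distance that a change of scaling hardly moves.

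The tyrosyl gene yars2 was the 1 mitochondrial gene that rose with the knockdown in DMSO as well as in leflunomide. It had 26.4, 28.4 and 27.5 CPM in tif1g DMSO, against 19.7, 21.5 and 19.2 CPM in control DMSO (0.44 ± 0.09, adjusted p = 0.000823). It had 23.4, 26.7 and 26.2 CPM in tif1g leflunomide, against 17.9, 17.2 and 20.9 CPM in control leflunomide (0.45 ± 0.09, adjusted p = 0.00114). Every tif1g library was above every control library, in DMSO and in leflunomide. Its change for both treatments together was 0.33 ± 0.09 (adjusted p = 0.00632), a call that ended with replicate number 3 left out of all groups (0.0685). Leflunomide alone gave -0.11 ± 0.09 in tif1g embryos and -0.11 ± 0.09 in control embryos, neither of which passed. No other mitochondrial gene was called for the knockdown in DMSO. The next ones were pars2 at 0.35 ± 0.14 (adjusted p = 0.0615, and 0.0360 with the block, which called 19.9% of all tested genes higher and 22.3% lower; range over the alternative settings 0.0256 to 0.396), the tryptophanyl gene wars2 at 0.32 ± 0.16 and the glutamyl gene ears2 at -0.46 ± 0.19 (0.140 and 0.0726).

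In leflunomide the knockdown raised 4 mitochondrial genes and lowered 1, where 12% of all tested genes rose and 11.8% fell. The median was 0.14 over the 15 genes and 0.01 over all genes. The others that rose were wars2 (0.52 ± 0.16), the methionyl gene mars2 (0.54 ± 0.19) and pars2 (0.42 ± 0.14), at adjusted p-values of 0.0252, 0.0485 and 0.0408. wars2 had 7.17, 6.54 and 7.11 CPM in tif1g leflunomide, against 5.11, 4.39 and 4.99 CPM in control leflunomide, and pars2 had 6.92, 6.74 and 6.27 CPM in tif1g leflunomide, against 4.48, 5.31 and 5.13 CPM in control leflunomide. Both had separate groups, yet their calls and that of mars2 ended without single libraries. With library totals the call of mars2 ended as well (adjusted p = 0.0615). For mars2 the libraries were 10 of the 12 libraries, all but replicate 1 of control DMSO and replicate 2 of control leflunomide (adjusted p = 0.0527 to 0.220). For pars2 they were all 3 of tif1g leflunomide and of control leflunomide, and tif1g DMSO replicate 1 (0.0506 to 0.156). For wars2 they were tif1g leflunomide replicates 1 and 3 and control leflunomide replicates 2 and 3 (0.0502 to 0.0985).

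The valyl gene vars2 was the 1 that fell, with 35.4, 31.3 and 34.7 CPM in tif1g leflunomide, against 40.4, 40.5 and 42.3 CPM in control leflunomide (-0.28 ± 0.07, adjusted p = 0.00939). Its call ended without tif1g leflunomide replicate 2 (adjusted p = 0.0598), although the 3 tif1g libraries were below the 3 controls. It was also lower with both treatments than in control DMSO (-0.22 ± 0.07, adjusted p = 0.0249), where the call ended without control DMSO replicate 1 or tif1g leflunomide replicate 2 (0.124 to 0.126) and with library totals (0.286). The cytosolic vars1 was among the genes called higher in the comparison in which vars2 was called lower. With the block, aars2 and wars2 were also called higher for both treatments together (adjusted p = 0.0387 and 0.0337; ranges over the alternative settings 0.00321 to 0.341 and 0.0249 to 0.387). The interaction and leflunomide in tif1g embryos gave no called mitochondrial gene with or without the block.

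Among the 15, cars2, fars2, lars2, nars2, rars2 and sars2, which serve cysteine, phenylalanine, leucine, asparagine, arginine and serine, were called in none of the 6 comparisons. The genes ears2 and iars2, given above, were not called in the main test either. The lowest counts were in rars2, nars2 and ears2. rars2 averaged 1.88 ± 0.251 CPM in tif1g leflunomide, 2.57 ± 0.832 in tif1g DMSO, 1.43 ± 0.246 in control leflunomide and 1.89 ± 1.05 in control DMSO (SD, n = 3). Its standard errors were 0.33 to 0.48 on the log2 scale, and its log2 fold changes lay between -0.45 and 0.43, with none called.

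**Figure D5:**
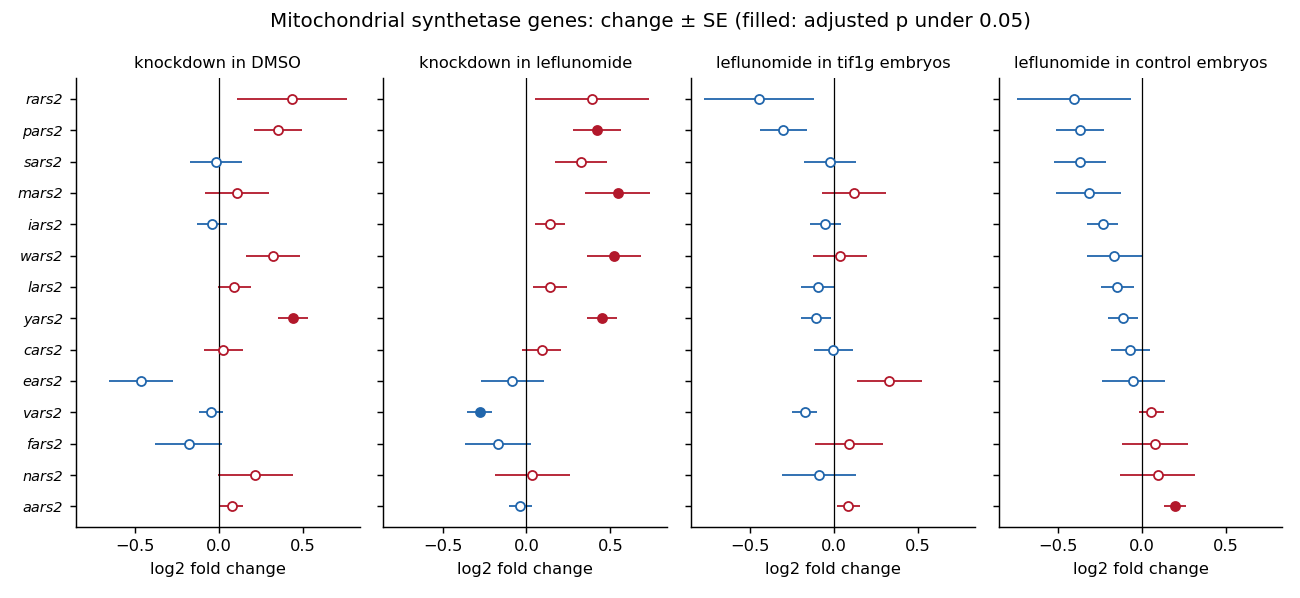
Log2 fold change ± SE of 14 mitochondrial synthetase genes from edgeR for the knockdown in DMSO and in leflunomide and for leflunomide in tif1g and in control embryos, with called changes (adjusted p under 0.05) filled. yars2 is filled in both knockdown comparisons, and the widest error bars are those of rars2.

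The histidyl gene hars2 had 122, 119.8 and 127 CPM in tif1g leflunomide, 140.3, 134 and 143 in tif1g DMSO, 117, 112 and 115 in control leflunomide and 161, 147 and 150.0 in control DMSO. Its control leflunomide libraries were the lowest 3 and its control DMSO libraries the highest 3. It fell with leflunomide in control embryos (-0.41 ± 0.05, adjusted p = 4.32e-05) and with both treatments (-0.31 ± 0.05, adjusted p = 0.000134). The knockdown in DMSO gave -0.13 ± 0.05 (adjusted p = 0.0571) and leflunomide in tif1g embryos -0.18 ± 0.05 (0.126), and both passed with the block (adjusted p = 0.0184 and 0.0151; ranges over the alternative settings 0.0184 to 0.365 and 0.0151 to 0.430). Its interaction of 0.23 ± 0.07 (0.198) passed with the block too (0.0309; range 0.0309 to 0.784). No second histidyl gene was found by the rule, so the share of each compartment in this transcript is not known here. Near-copies outside the rule were lars1a, at 23.6 ± 2.75 CPM in tif1g leflunomide, 28.5 ± 2.33 in tif1g DMSO, 18.6 ± 1.17 in control leflunomide and 24.5 ± 2.80 in control DMSO (SD, n = 3), and the threonyl-like tars3, which was called in none of the 6 comparisons. How reads shared between lars1 and lars1a were counted is not known here, so the values of lars1 are uncertain to that extent.

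Of the 4 scaffold genes of the multisynthetase complex, leflunomide in control embryos lowered 2, as did the knockdown in DMSO, where 13.1% of all tested genes fell with leflunomide and 17.2% with the knockdown. With library totals both leflunomide calls ended, those of aimp2 (adjusted p = 0.0807) and aimp1 (0.0746), and both knockdown calls stayed. eef1e1, also known as AIMP3, fell with the knockdown in DMSO (-0.73 ± 0.08) and in leflunomide (-0.60 ± 0.08), at adjusted p-values of 1.68e-06 and 1.97e-05, while leflunomide in control embryos gave 0.04 ± 0.08 (0.750). aimp2 fell with leflunomide in control embryos (-0.32 ± 0.08, adjusted p = 0.00493) and gave -0.04 ± 0.08 for the knockdown in DMSO (0.706). Of the 2 genes named aimp1, ENSDARG00000060036 fell in both comparisons with control DMSO (-0.30 ± 0.07 for the knockdown and -0.32 ± 0.07 for leflunomide; adjusted p = 0.00436 and 0.00410), and ENSDARG00000036894 was called in none.

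Genes of cytosolic elongation and transfer RNA delivery were partly lower. Of 13 tested cytosolic elongation and delivery genes, leflunomide in control embryos lowered 4 and raised none, against 13.1% and 8.87% of all tested genes. These were xpot, which exports transfer RNA from the nucleus (-0.33 ± 0.05, adjusted p = 0.000146), the elongation factor genes eef1a1l1 (-0.29 ± 0.05) and eef2b (-0.25 ± 0.05), and eef1g (-0.30 ± 0.07), a subunit of the factor that recharges eEF1A with GTP. With library totals the calls of eef2b and eef1g ended (adjusted p = 0.0896 and 0.0625). With leflunomide in tif1g embryos, where 0.425% of all tested genes fell and no synthetase gene was called, xpot gave -0.23 ± 0.05 (adjusted p = 0.0454). That call ended with library totals (0.112) and without any 1 of 10 libraries, all but replicates 1 and 2 of control DMSO (0.0547 to 0.196). The knockdown in DMSO lowered 6 and raised 3 of the 13, against 17.2% and 15.6% of all tested genes, among them eef1g (-0.93 ± 0.07, adjusted p = 1.48e-08) and the related subunit genes eef1b2 (-0.43 ± 0.06) and eef1da (0.52 ± 0.08), which changed in opposite directions. In leflunomide the knockdown lowered 4 and raised 2, against 11.8% and 12% of all tested genes.

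Of 20 partners of mitochondrial translation, leflunomide in control embryos lowered 5 and raised none, against 13.1% and 8.87% of all tested genes. They were tufm, the mitochondrial elongation factor Tu (-0.51 ± 0.06, adjusted p = 2.89e-05), its exchange factor tsfm (-0.41 ± 0.09), the transfer RNA methyltransferase trmt5 (-0.41 ± 0.08), and the messenger RNA binding pair lrpprc (-0.30 ± 0.06) and slirp (-0.35 ± 0.12). The knockdown in leflunomide raised 3, where 12% of all tested genes rose. They were tufm (0.31 ± 0.06), tsfm (0.35 ± 0.09) and slirp (0.35 ± 0.12). The knockdown in DMSO lowered 2 of the 20, where 17.2% of all tested genes fell, namely gatb (-0.42 ± 0.13) and qrsl1 (-0.45 ± 0.16), subunits of the amidotransferase that makes glutaminyl transfer RNA in mitochondria, where mammals charge glutamine by this indirect route. Both calls ended with library totals (adjusted p = 0.0501 for gatb and 0.0596 for qrsl1) and without control DMSO replicate 1 or tif1g DMSO replicate 2 or 3 (0.0555 to 0.224), and that of gatb also without control DMSO replicate 3 (0.0572). The fall of slirp ended with library totals (0.201), and its calls in both comparisons ended without any 1 of the 6 libraries compared (0.0538 to 0.131).

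Genes of the ATF4 and amino acid stress response went in both directions. With leflunomide in control embryos, 9 of 38 tested fell and 3 rose, against 13.1% and 8.87% of all tested genes. With library totals 4 were lower and 6 higher, where 1220 of the 21400 tested genes were lower and 3538 higher. The falls included the amino acid transporter gene slc38a2 (-0.60 ± 0.09, adjusted p = 0.000181), the mTORC1 inhibitor gene ddit4 (-0.37 ± 0.06, 0.000226) and the asparagine synthetase gene asns (-0.31 ± 0.06, 0.00148), of which asns did not pass with library totals (0.0539). The atf4a transcript changed by 0.05 ± 0.05 (0.566), and the protein was not measured. The knockdown in DMSO raised 9 and lowered 9, against 15.6% and 17.2% of all tested genes, and with library totals it raised 12 and lowered 7, where 4306 of all genes were higher and 2888 lower. Among the falls were phgdh, of serine synthesis (-1.09 ± 0.07, 1.24e-09), and asns (-0.47 ± 0.06, 1.14e-05), and atf4a gave 0.17 ± 0.05 (0.0170), whose call ended without control DMSO replicate 1 (0.0892) or tif1g DMSO replicate 2 (0.0862). In leflunomide the knockdown raised 6 and lowered 6, against 12% and 11.8% of all tested genes. Among 8 synthetase-like and editing genes, 1 fell with the knockdown in leflunomide, where 11.8% of all tested genes fell. It was the alanyl editing gene aarsd1 (-0.89 ± 0.20, adjusted p = 0.00276). With both treatments 1 of the 8 fell, where 18.7% of all tested genes fell. That was sephs1, a relative of the selenophosphate synthetases (-0.28 ± 0.10, adjusted p = 0.0347). Its call ended with library totals (0.159) and without any 1 of 5 libraries (0.0628 to 0.123). These were the 3 of control DMSO and replicates 1 and 2 of tif1g leflunomide. With TMM factors and without the block, no other gene of that list was called.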

How the data were processed

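Strand-specific libraries depleted of ribosomal RNA were made from total RNA of pooled embryos, per the labels' protocols. The authors deposited whole-number read counts for 32520 Ensembl genes. FastQC, cutadapt, TopHat2 2.0.11, Cufflinks 2.2.1, HTSeq and genome build GRCz11 are named in the submitters' processing notes, while no source used here gives the counting strand or the annotation, so reads of overlapping or antisense genes cannot be told apart. Symbols came from a gene name table that covered 29201 identifiers, and positions and sequences were not used here.

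Of 30339 genes that had a count, 21400 passed filterByExpr (edgeR 4.0.16, R 4.3.3). After TMM scaling, counts were fitted in 1 robust quasi-likelihood model with 4 group means over 12 libraries. Each of 6 contrasts was tested with edgeR's quasi-likelihood test, and p-values were Benjamini-Hochberg adjusted over the 21400 genes, with a call at an adjusted p under 0.05 and no fold minimum. Changes are log2 fold changes with standard errors, and levels are TMM-scaled CPM. Each standard error from edgeR was worked back from the test, as the size of the log2 fold change divided by the square root of the F statistic. The procedure was tested on simulated data for the knockdown in DMSO only, with the same spread for all genes and no pairing of samples. The replicate block and the choice of scaling were not tested in this way. Every synthetase gene called in any contrast is given by value, with the genes of lowest and highest counts, and of each other list up to 4 called genes with the smallest p in each comparison. slirp, for leflunomide in control embryos, and atf4a were named beyond this rule, after their values were seen. Some synthetase genes that this rule takes enter the counts and medians and are not reported here by name. The members and lists were chosen with earlier results of these data known.

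Alternatives were RLE factors, library totals, DESeq2 1.42.0 with no independent filtering, no filter on low counts, only the groups compared, the replicate number as a block, and leaving out each library or replicate number. The series description says that embryos of a clutch were divided between the treatments. Over 18 pairs of same-numbered libraries of different groups the deviations from the group means correlated at 0.156 to 0.274. Over 36 pairs with different numbers they correlated at -0.17 to -0.0273. Deviations from a group mean cancel within the group, so positive values for same numbers make the others negative on average. The values for different numbers are therefore no separate evidence. From the same-numbered pairs the numbers were taken to pair the samples. The main test leaves this pairing out, and only the fit with the block uses it. Whether a number is a clutch is not stated, and p-values measure the spread between these pooled samples. Replicates of a group differed by a chi-square of 7.09 to 15.0 per degree of freedom, so none was counted as a duplicate.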

Additional observations from a re-analysis of the deposited data

Results flagged for a closer look

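For 6 of the genes reported here the change with leflunomide differed between tif1g and control embryos in a test of the difference itself, the interaction with the replicate number as a block, at adjusted p-values of 0.0183 for qars1, 0.0236 for gars1, 0.0309 for hars2, 0.0400 for kars1, 0.0409 for lars1 and 0.0456 for sars1 (edgeR's quasi-likelihood test). That fit called 3.37% of all tested genes positive and 1.62% negative. In each the change was closer to 0 in tif1g embryos than in control embryos. Without the block none of the 6 was called, and their adjusted p-values over all settings ran from 0.0183 to 0.838.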

How the results depend on the processing

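No synthetase change reversed its direction past the threshold under any setting. With library totals, 3 synthetase genes were called higher by the knockdown in DMSO (1 with TMM factors) and 3 with both treatments (1 with TMM factors). Over all genes, library totals gave 3538 higher and 1220 lower for leflunomide in control embryos, 15 lower for leflunomide in tif1g embryos, 3 lower for the interaction and 2644 lower with both treatments. The call of aars2 for leflunomide in control embryos ended, leaving 0 synthetase genes higher, with RLE factors, with no filter on low counts and with only the groups compared. The share of all counts held by the cytosolic genes in tif1g leflunomide was 0.205% with counts of the mitochondrial genome left out and 0.202% with them. The median level over the 35 genes in control leflunomide was 43.5 CPM on library totals and 42.0 CPM with TMM factors.

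The replicate block gave 2 synthetase genes higher for the knockdown in DMSO, 11 lower for leflunomide in tif1g embryos, 7 higher for the interaction and 3 higher with both treatments, against 1, 0, 0 and 1 without it. Over all genes the block gave 2899 higher for leflunomide in control embryos, 578 higher and 940 lower for leflunomide in tif1g embryos, and 721 higher and 346 lower for the interaction. Apart from the calls named or counted in the report, the block changed no call of a synthetase gene. DESeq2 called 3 synthetase genes lower for leflunomide in tif1g embryos, with 139 of all genes higher and 302 lower, and 91 higher and 71 lower for the interaction. With only the groups compared, leflunomide in tif1g embryos gave 17 genes higher and 23 lower, and with no filter on low counts the interaction gave 1 lower.

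Leaving out 1 library gave 1 to 3 synthetase genes higher and 9 to 14 lower for the knockdown in DMSO, 4 to 7 higher and 4 to 5 lower for the knockdown in leflunomide, 0 to 1 higher and 16 to 21 lower for leflunomide in control embryos, 0 higher and 0 to 2 lower for leflunomide in tif1g embryos, 1 to 2 higher and 17 to 19 lower with both treatments, and none for the interaction. Over all genes it gave 2573 to 3306 higher and 2899 to 3675 lower for the knockdown in DMSO, 1955 to 2676 and 1932 to 2613 for the knockdown in leflunomide, 1161 to 1850 and 1946 to 2791 for leflunomide in control embryos, 0 to 57 and 0 to 151 for leflunomide in tif1g embryos, and 2991 to 3671 and 3404 to 4034 with both treatments. With replicate number 1, 2 or 3 left out of all groups, synthetase genes lower were 8, 12 and 13 for the knockdown in DMSO, 4, 2 and 0 for the knockdown in leflunomide (3, 2 and 2 higher), and 14, 15 and 17 for leflunomide in control embryos (0 higher each time), and with both treatments 1, 1 and 0 were higher. Over all genes, those higher were then 2277, 2211 and 2428 for the knockdown in DMSO, 1572, 1504 and 1503 for the knockdown in leflunomide, 870, 720 and 1259 for leflunomide in control embryos, 1, 0 and 2 for leflunomide in tif1g embryos, and 2402, 2649 and 2670 with both treatments. Those lower were 1794, 1587 and 1503 for the knockdown in leflunomide, 1433, 1394 and 2139 for leflunomide in control embryos, and 0 each time for leflunomide in tif1g embryos. The cause of these shifts was not tested, beyond the smaller number of libraries where some were left out. Calls that outlasted the loss of any 1 library were 10 of 14 for the knockdown in DMSO, 6 of 12 for the knockdown in leflunomide, 15 of 20 for leflunomide in control embryos and 18 of 20 with both treatments. Those that outlasted the loss of any library or replicate number were 9, 2, 14 and 14 in the same order. Precision was lowest in rars2, with standard errors of 0.33 to 0.48 on the log2 scale, and the part of its low counts in this was not tested.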
